A study of Bos taurus with 14 samples.

Results

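The miR-378 family was followed in the blood of cows as 4 bovine miRNA names, bta-miR-378, bta-miR-378b, bta-miR-378c and bta-miR-378d. They were taken by name alone, as every row called bta-miR-378 or bta-miR-378 with a letter, and are 4 of the 932 bovine and human miRNA names listed in at least 1 library. All 4 were found in plasma, among 642 names, and all 4 in leucocytes, among 916. The family was almost a single miRNA in these libraries: bta-miR-378 held 95.3% to 98.2% of the family's adjusted counts (reads divided among the names and places they match) in each of the 14 libraries, bta-miR-378c most of the rest, and bta-miR-378b and bta-miR-378d a few reads.

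The miRNAs of this family are short RNAs that are cut from hairpin precursors and that lower the output of messenger RNAs they pair with. miR-378 is known from energy metabolism: in mammals its best studied hairpin lies within PPARGC1B, which encodes a coactivator of mitochondrial and fatty acid metabolism, and the miRNA has been studied in muscle, fat and liver. A hairpin can give a mature miRNA from each of its arms, and bta-miR-378 is the product of the 3p arm.

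Small RNA was sequenced from 4 ruminally cannulated, non-lactating Holstein cows, each sampled first while fed forage alone (FD, 0% concentrate) and then at week 1 of high-grain feeding (HG, 65% concentrate), which is fed to bring on subacute ruminal acidosis. Plasma gave 8 libraries (4 FD and 4 HG, cows 1 to 4) and the buffy coat, taken as leucocytes, gave 6 (3 FD and 3 HG, cows 1, 3 and 4). No genetic change is named for the cows, and the diets were given in the same order to all of them, so diet and time cannot be told apart. The question was whether circulating miRNAs differ between the diets.

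Reads assigned to miRNAs numbered 376589 to 4464702 per plasma library and 21764578 to 66070772 per leucocyte library, so that 3 reads, taken as the most that a count of 0 allows, were 0.672 to 7.97 RPM (reads per 1000000 reads assigned to miRNAs) in plasma and 0.0454 to 0.138 in leucocytes. These limits cover counting error only, since the reads carry no molecular identifiers that were used here. The leucocyte libraries carried all 6 leucocyte marker miRNAs, but their summed level, 29885 to 47995 RPM, was below that of 4 erythrocyte miRNAs, 298029 to 426215. In plasma the erythrocyte list stood at 56647 to 185310, the leucocyte list at 21331 to 31323, and the liver miRNA bta-miR-122 at 5170 to 61652 RPM against 16.7 to 75.7 in leucocytes.

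The 4 members were listed at separate places in the UMD3.1 genome. bta-miR-378 was placed on chromosome 4 at 10715305 to 10715326 (plus strand), in the hairpin bta-mir-378-2. bta-miR-378b lay on chromosome 15 at 30727363 to 30727384 (plus strand), bta-miR-378c on chromosome 24 at 31729559 to 31729579 (minus strand) and bta-miR-378d on chromosome 19 at 8714936 to 8714957 (minus strand). By the RefSeq gene spans of the later ARS-UCD2.0 assembly, used for names only, the hairpin MIR378-1 lies within PPARGC1B, MIR378-2 within CALCR (the calcitonin receptor), MIR378C within ZNF521 (a zinc finger protein) and MIR378D within MSI2 (an RNA-binding protein). MIR378B lies within no gene span, between THY1 and NECTIN1. Bovine bta-miR-378 is thus listed in the files at 1 of its 2 hairpins, the one within CALCR, and its row is marked there as a duplicate.

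The level of each member is given first in RPM of shared reads, the reads counted whole at every name they match. The mature products are 21 or 22 bases long, so levels are compared without a correction for length. In plasma on FD, bta-miR-378 stood at 2948, 1428, 786 and 732 RPM in cows 1 to 4, from 1110, 2039, 1381 and 2262 reads. On HG it stood at 712, 2929, 3147 and 1140 RPM, from 3181, 2857, 3345 and 3874 reads. The diets overlapped in RPM: cow 1 was lower on HG, at 0.242 of its FD level, and cows 2, 3 and 4 were higher, by 2.05, 4.00 and 1.56 times. The summed level of 6 striated muscle miRNAs, of which 4 or 5 had reads, moved the same way in each cow in plasma, at 4899, 1743, 1621 and 1352 RPM on FD and 1465, 4938, 8251 and 1679 on HG in cows 1 to 4. Of its members bta-miR-1 did so in each cow, while bta-miR-499 rose in cow 1 (183 to 321 RPM) and fell in cow 4 (250 to 202). In cow 4 bta-miR-133a, bta-miR-133b (119 to 0 RPM) and bta-miR-206 fell too, so the higher sum there came almost wholly from bta-miR-1 (609 to 1381). In cow 1 bta-miR-206 rose slightly (10.6 to 11.0). The summed level of 2 endothelial and platelet miRNAs also moved that way, from 3508, 2488, 3592 and 5222 RPM on FD to 2291, 4054, 4923 and 5433 on HG, although bta-miR-126-5p fell in cow 4. The summed erythrocyte and leucocyte lists and the liver miRNA did not in every cow. Of their members bta-miR-363 (erythrocyte), bta-miR-142-5p and bta-miR-150 (both leucocyte) did so in each cow, and the rest did not. The part of these lists in the levels of bta-miR-378 was not tested. In leucocytes bta-miR-378 stood at 248, 284 and 494 RPM on FD in cows 1, 3 and 4, and at 311, 374 and 398 on HG. The leucocyte libraries thus spanned a narrower range than plasma, with cow 4 highest on both diets. In these bulk samples, fewer cells of a type and less RNA per cell cannot be told apart.

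bta-miR-378c was the only other member with reads in all 14 libraries. Its level in plasma was 85.0, 30.8, 19.4 and 13.6 RPM on FD and 22.6, 79.96, 159 and 25.3 on HG in cows 1 to 4, from 32 to 44 reads on FD and 78 to 169 on HG. The order of the cows on FD was that of bta-miR-378, and on HG cow 3 was again highest and cow 1 lowest. In leucocytes it was at 11.2, 10.9 and 20.95 on FD and at 11.0, 13.3 and 16.7 on HG. bta-miR-378c, on average 54.5 RPM in plasma and 14 in leucocytes, ranked 276 of 642 and 285 of 916 names, where bta-miR-378, on average 1728 and 351, ranked 105 and 129.

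The remaining members had few reads and in plasma were near the limit of these libraries. bta-miR-378d had 0, 4, 2 and 3 reads in plasma on FD and 6, 4, 8 and 11 on HG, and in leucocytes 41, 37 and 62 reads on FD and 28, 28 and 43 on HG. The 0 of cow 1 on FD came from the smallest library, where 3 reads are 7.97 RPM, above the level of bta-miR-378d in every other library. bta-miR-378b had 2 reads in each of 2 plasma libraries, cow 4 on FD and cow 3 on HG, and none in the other 6. In leucocytes it had 6, 2 and 7 reads on FD and 10, 14 and 3 on HG. Of these counts of bta-miR-378b, those of 2 and 3 reads are within what a count of 0 allows, and those of 6 to 14 are above it. Its fitted values below that use plasma rest on 2 reads in 1 library of each diet.

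**Figure D1:**
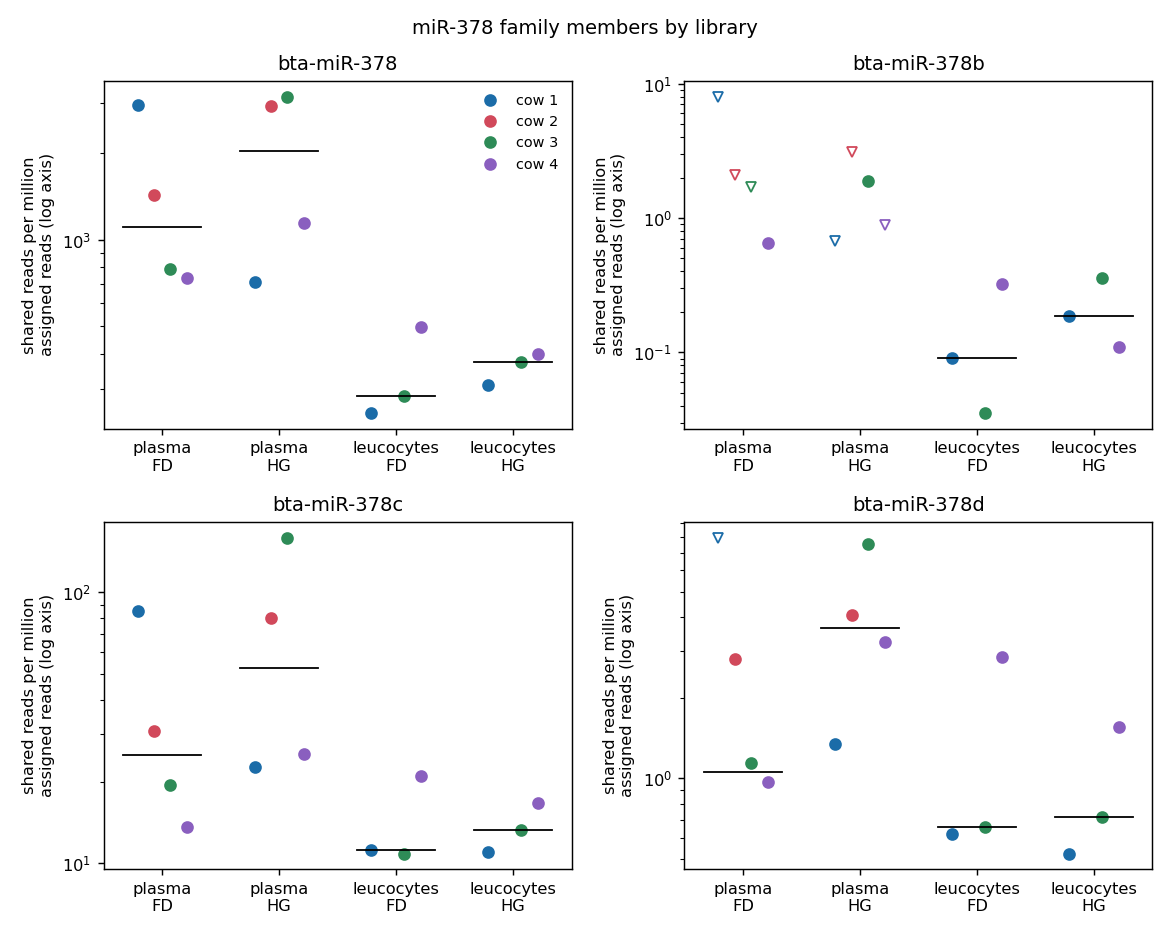
Shared reads in RPM (log axis, a separate range in each panel) of the 4 members in the 14 libraries, coloured by cow; black lines are group medians above 0, and open triangles mark libraries with no reads, drawn at the level that 3 reads would give. bta-miR-378 lies at 712 to 3147 RPM in plasma and at 248 to 494 in leucocytes, and its diets overlap in both.

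The level of bta-miR-378 followed the depth of the library. The 3 plasma libraries with the fewest assigned reads, cow 1 on FD and cows 2 and 3 on HG, were the 3 with the highest level, 2929 to 3147 RPM, and the other 5 lay between 712 and 1428. Spearman's rho between level and assigned reads was -0.86 in plasma (8 libraries) and -1 in leucocytes (6 libraries), where the order was exactly reversed. These values are a description: libraries of 1 cow are not independent, and the level has the assigned reads as its denominator. Of the names with reads in every library of a type, 3.04% of 362 in plasma and 2.44% of 657 in leucocytes had a rho as low, beside medians of -0.23 and -0.43. bta-miR-378c had a rho of -0.74 in plasma and -0.83 in leucocytes. The part of depth in the diet and sample type differences below was not tested.

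**Figure D2:**
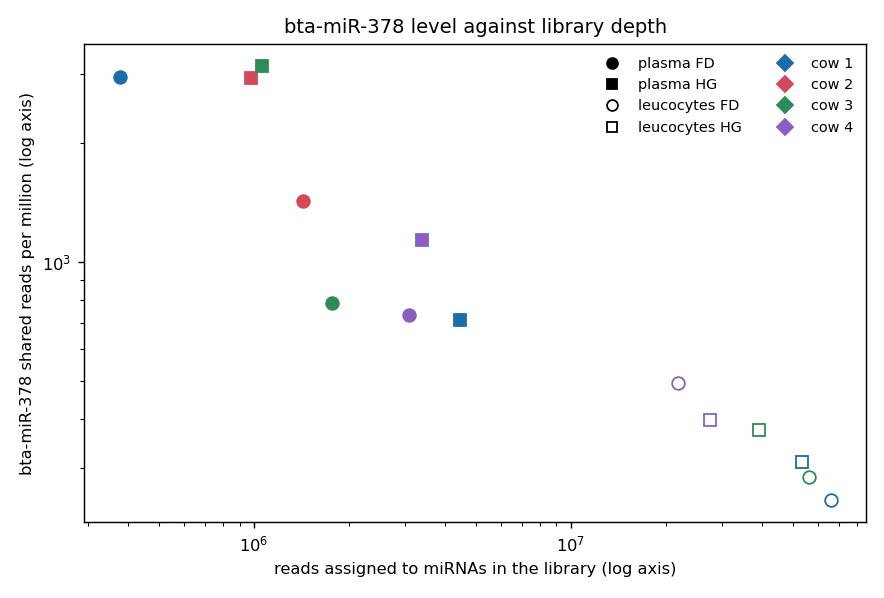
Level of bta-miR-378 (shared RPM, log axis) against reads assigned to miRNAs (log axis), 1 point a library; filled points are plasma and open points leucocytes, circles FD and squares HG, coloured by cow. The 3 plasma libraries under 1200000 assigned reads have the 3 highest levels, and within leucocytes the level falls at each step of depth.

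Shared reads and distinct sequences, which are not scaled to depth, separated the diets in plasma. The plasma libraries as a whole also separated by diet. Of the reads analysed, 39.3% to 58.1% were assigned to miRNAs on FD and 59.3% to 72.0% on HG. Names listed numbered 410 to 454 on FD and 504 to 538 on HG. The part of these differences in the counts below was not tested. Shared reads of bta-miR-378 were 1110 to 2262 on FD and 2857 to 3874 on HG, and those of bta-miR-378c were 32 to 44 and 78 to 169, with no overlap for either. Such a separation, each HG library above each FD library, was seen in 22.1% of the 362 names with reads in all 8 plasma libraries. The number of distinct sequences counted for bta-miR-378 was 29, 28, 26 and 27 on FD and 44, 37, 50 and 43 on HG, again without overlap, which was true of 36.7% of the same names. For bta-miR-378c, distinct sequences numbered 2 to 3 on FD and 3 to 6 on HG and overlapped. In leucocytes, with 10754 to 16657 shared reads, bta-miR-378 had 92 to 130 distinct sequences, and the diets overlapped.

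The adjusted counts gave the family a much lower level than the shared reads. Each miRNA name kept a share of its shared reads, with a median over names of 50% in plasma and 100% in leucocytes. bta-miR-378 kept 25.8%, 25.2%, 25.5% and 25.4% in plasma on FD and 25.7%, 25.7%, 25.8% and 26.0% on HG in cows 1 to 4. In leucocytes it kept 26.8%, 26.6% and 26.3% on FD and 26.7%, 26.9% and 26.6% on HG in cows 1, 3 and 4. The share was thus slightly above 25%, the share of 1 entry in 4, in each of the 14 libraries, and 8.10% of the plasma names and 7.21% of the leucocyte names kept as little or less.

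The human name hsa-miR-378a-3p had the same shared reads, distinct sequences and adjusted counts as bta-miR-378 in all 14 libraries, so that it is the same measurement under a second name. The adjusted counts of this name and the 4 bovine members together came to 50.9% to 54.7% of the shared reads of bta-miR-378. Over all names, adjusted counts came to 71.2% to 87.1% of the assigned reads. The ranking of the family fell accordingly: by adjusted counts bta-miR-378 ranked 140 of 642 names in plasma and 148 of 916 in leucocytes.

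bta-miR-378c kept 19.6% to 25.7% over the 14 libraries, beside 20% for 1 entry in 5. In plasma it kept 20%, 19.7%, 19.8% and 19.8% on FD and 23.8%, 22.9%, 21.8% and 19.6% on HG, and in leucocytes 23.9%, 23.7% and 24.01% on FD and 25.7%, 23.6% and 22.04% on HG. Plasma on FD was the most uniform group and stood close to 20%, and cow 4 did not share the higher value of the other cows on HG. bta-miR-378d kept 16.5% to 47.9% in the 7 plasma libraries with reads, where 5 stood at 1 entry in 6 to within 0.011 reads, and 20.7% to 46.4% in leucocytes. bta-miR-378b kept 100.0% of its 2 reads in each of 2 plasma libraries and 20% to 54.3% in leucocytes.

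**Figure D3:**
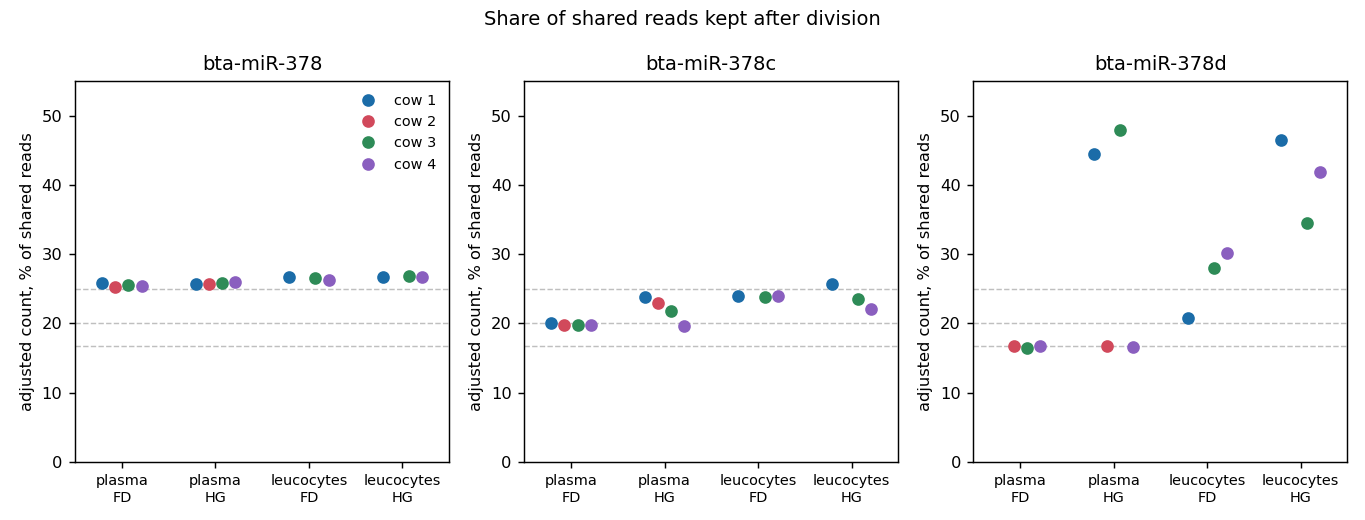
Adjusted count as a percentage of shared reads for the 3 members with reads in 13 or 14 libraries, by group and coloured by cow; dashed lines mark 1 entry in 4 (25%), in 5 (20%) and in 6 (16.7%). bta-miR-378 stays between 25.2% and 26.9%, bta-miR-378c between 19.6% and 25.7%, and bta-miR-378d, with 2 to 62 reads a library, spreads from 16.5% to 47.9%.

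Changes in the share kept were small for the main members and did not pass a test by diet. For bta-miR-378 the HG minus FD difference was 0.284 percentage points ± 0.320 (SD, n = 4 cows) in plasma, higher in 3 of 4 cows (p = 0.25, exact two-sided sign-flip permutation test). In leucocytes it was 0.186 points ± 0.209 (SD, n = 3), higher in 2 of 3 cows (exact p = 0.50). For bta-miR-378c it was 2.21 points ± 1.77 (SD, n = 4) in plasma, higher in 3 of 4 cows (exact p = 0.25), and -0.123 points ± 1.88 (SD, n = 3) in leucocytes, higher in 1 of 3 (exact p = 0.75). After Benjamini-Hochberg adjustment over the 12 such tests the smallest value was 0.429 for the exact tests. These tests cannot go below a p of 0.13 with 4 cows or 0.25 with 3.

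By sample type the share was lower in plasma in each cow for both members. The plasma minus leucocyte difference for bta-miR-378 was -0.986 points ± 0.113 (SD, n = 3) on FD and -0.941 points ± 0.247 on HG. For bta-miR-378c it was -4.05 points ± 0.172 on FD and -2.04 points ± 0.374 on HG. Each difference pointed the same way in 3 of 3 cows and was larger than its spread between cows, at the smallest p this design allows (exact p = 0.25, adjusted exact p = 0.429).

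For the comparison of HG with FD, adjusted counts were tested with edgeR's quasi-likelihood test across the names whose counts summed to 10 or more, with TMM scaling and the cow as a block, and a name was called at a Benjamini-Hochberg adjusted p under 0.05. In plasma no member was called, against a background of 0 of 538 names (0%), although 55 names had an unadjusted p under 0.05 and a DESeq2 Wald test called 12 (10 higher and 2 lower on HG), none of them a member. bta-miR-378 differed by 0.04 on the log2 scale (SE 0.61, edgeR adjusted p = 0.984), beside a median of 0.25 over all names tested. bta-miR-378c differed by 0.62 (SE 1.07, edgeR adjusted p = 0.950) and bta-miR-378d by 1.41 (SE 1.34, edgeR adjusted p = 0.938), while bta-miR-378b had too few reads to be tested. The adjusted counts of bta-miR-378d summed to 1.5 on FD and 9.0 on HG. It thus met the limit of 10 only through HG, and its positive sign is tied to that filter. The standard error of bta-miR-378 leaves room for a difference of more than 1 log2 unit in either direction. Its value was 0.51 without cow 1 and -0.31 without cow 3, and -0.26 when the 3 plasma libraries under 1200000 assigned reads were left out, a choice made after seeing the data.

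In leucocytes the spread was narrower and the diets were again not told apart. None of the 4 members was called, against 15 of 782 names (1.92%). bta-miR-378 differed by 0.14 on the log2 scale (SE 0.17, edgeR adjusted p = 0.771), higher in 2 of 3 cows by RPM, and bta-miR-378c by -0.02 (SE 0.23, edgeR adjusted p = 0.980). bta-miR-378d differed by 0.27 (SE 0.65) and bta-miR-378b by 0.73 (SE 1.69), both with an edgeR adjusted p of 0.914. The adjusted counts of bta-miR-378b summed to 7.0 on FD and 9.8 on HG. It met the limit of 10 with more of its counts from HG, so its positive sign is partly tied to that filter. For bta-miR-378d the shared reads gave the opposite sign, -0.33, in the same test, and its share kept on HG exceeded that on FD in 3 of 3 cows, by 14.7 points ± 9.87 (SD, exact p = 0.25).

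The diet effect in plasma was also set against that in leucocytes in 1 fit over cows 1, 3 and 4. The difference was -0.41 for bta-miR-378 (SE 0.96), 0.37 for bta-miR-378c (SE 2.21), 2.66 for bta-miR-378d (SE 3.16; 7.04 without cow 4 and 1.41 without cow 3) and -0.87 for bta-miR-378b (SE 3.37) on the log2 scale, each with an edgeR adjusted p of 1.

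Between plasma and leucocytes, the level of bta-miR-378 in RPM was higher in plasma in each cow. Extraction kit and depth differed with sample type, so their part cannot be told apart from it. On FD plasma was 11.9, 2.77 and 1.48 times the leucocyte level in cows 1, 3 and 4, and on HG it was 2.29, 8.42 and 2.86 times. The mean log2 ratio was 1.87 ± 1.54 (SD, n = 3, exact sign-flip p = 0.25) on FD and 1.93 ± 1.004 (SD, n = 3, exact p = 0.25) on HG, and 0.25 is the smallest p that 3 cows allow. Each of the 8 plasma libraries, the lowest at 712 RPM, was above each of the 6 leucocyte libraries, the highest at 494. This was so for 36.3% of the 361 names with reads in all 14 libraries. It was not so for bta-miR-378c, where plasma on FD in cow 4, at 13.6, was below the 20.95 of the same cow's leucocytes.

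The edgeR test with TMM scaling did not call the difference. On FD bta-miR-378 was at 1.27 on the log2 scale, plasma over leucocytes (SE 0.96, edgeR adjusted p = 0.328), and no member was called of the 3 tested, against 145 of 745 names (19.5%, with 8.05% higher and 11.4% lower in plasma). On HG it was at 0.10 (SE 0.53, edgeR adjusted p = 0.876), and none of the 4 members was called against 325 of 729 names (44.6%, with 10.3% higher and 34.3% lower in plasma). On HG the call turned on the scaling, and on FD the value turned most on cow 1, at 0.14 without it and 1.71 without cow 4. TMM placed the median of all names at -1.72 on FD and -1.79 on HG, and scaling by library size placed it at -1.05 and 0.19. With library size, bta-miR-378 was at 1.96 on FD (edgeR adjusted p = 0.157) and at 2.06 on HG (edgeR adjusted p = 0.00215), the single call of a member in the settings run. That setting called 208 of 729 names on HG, 176 of them higher in plasma. On FD bta-miR-378 lay above the median of all names by 2.99 with TMM and by 3.01 with library size. On HG it lay 1.89 and 1.87 above it. A change of scaling shifts all names by nearly the same amount, so this closeness follows from the scaling and adds no support.

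**Figure D4:**
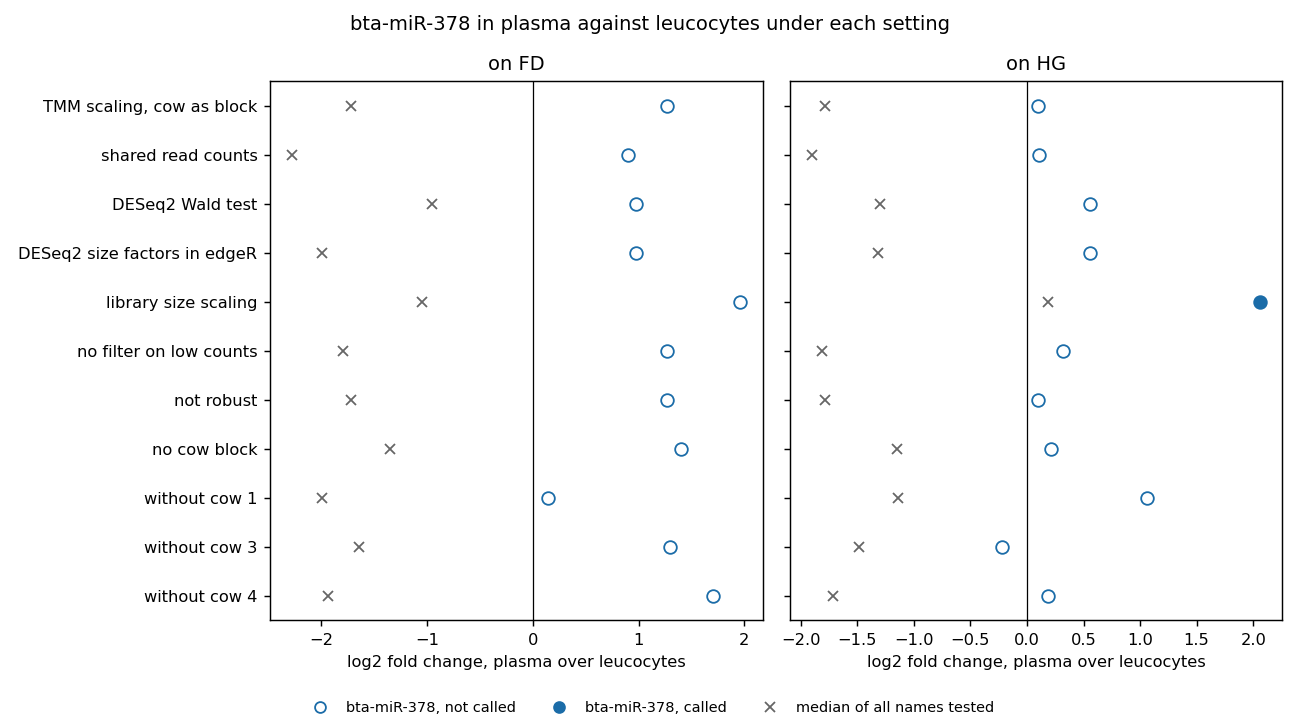
log2 fold change of bta-miR-378, plasma over leucocytes, on FD (left) and HG (right) under each setting named on the vertical axis; filled circles are called at an adjusted p under 0.05, open circles are not, and crosses are the median of all names tested. The circle lies to the right of the cross in each row by 1.26 to 3.64 log2 units, while its place against 0 moves with the scaling and with the cows included.

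The other members had wide errors in this comparison. On FD bta-miR-378c was at 0.21 (SE 1.44, edgeR adjusted p = 0.908) and bta-miR-378d at -1.90 (SE 2.35, edgeR adjusted p = 0.540) with TMM scaling. On HG bta-miR-378c was at -0.18 (SE 1.51), bta-miR-378d at -0.01 (SE 1.34) and bta-miR-378b at -0.22 (SE 1.53), with edgeR adjusted p of 0.911 to 0.997. All 3 had a positive sign on HG with library size scaling, at 1.76, 1.93 and 1.66. The plasma side of bta-miR-378b on HG was 2 reads, in cow 3 alone. On FD the plasma side of bta-miR-378d was 0, 2 and 3 reads in cows 1, 3 and 4. Its leucocyte adjusted counts on FD summed to 37.5, and those of bta-miR-378b on HG to 9.8. Both met the limit of 10 mainly through leucocytes, so these negative signs are tied to that filter. Markers of other sources moved with sample type as well: the 2 endothelial and platelet miRNAs summed to 2291 to 5433 RPM in plasma against 46.7 to 206 in leucocytes, and the 6 striated muscle miRNAs, of which 4 to 6 had reads, to 1352 to 8251 against 120 to 342. Their part in the level of bta-miR-378 was not tested.

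Ratios between 2 names of the family were also taken, since they do not use the assigned reads. A shared read that matches both bta-miR-378c and bta-miR-378 counts whole in each, and how many reads do so was not determined. bta-miR-378c had 2.88, 2.16, 2.46 and 1.86 shared reads per 100 shared reads of bta-miR-378 in plasma on FD in cows 1 to 4 and 3.18, 2.73, 5.05 and 2.22 on HG. HG was the higher diet in all 4 cows, with a mean log2 ratio of 0.44 ± 0.40 (SD, n = 4, exact sign-flip p = 0.13, the smallest possible). In leucocytes it had 4.50, 3.82 and 4.24 per 100 on FD in cows 1, 3 and 4 and 3.54, 3.55 and 4.21 on HG. This was lower on HG in 3 of 3 cows, with a mean log2 ratio of -0.15 ± 0.17 (SD, n = 3, exact p = 0.25). Both tests were added after the values were seen, and both sit at the limit of the design.

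A product of the 5p arm was listed only under a human name, hsa-miR-378a-5p, which was placed on chromosome 7 at 63067305 to 63067326 (UMD3.1, plus strand), in the hairpin hsa-mir-378a and not in the hairpin at which bta-miR-378 is listed. MIR378-1, the other hairpin of bta-miR-378, is also on chromosome 7 (ARS-UCD2.0), and whether the 2 places are the same was not tested. All reads of hsa-miR-378a-5p were kept in the adjusted counts. It had 27, 33, 30 and 31 reads in plasma on FD and 122, 76, 91 and 88 on HG in cows 1 to 4, and in leucocytes 602, 550 and 449 on FD and 711, 686 and 393 on HG. In plasma its reads, like those of bta-miR-378, were higher in each HG library than in each FD library. Its edgeR test by diet gave 0.63 in plasma (SE 0.94, edgeR adjusted p = 0.950) and 0.29 in leucocytes (SE 0.25, edgeR adjusted p = 0.658). The leucocyte value rested on the cows included: without cow 4 it was 0.68 and called (edgeR adjusted p = 0.00218), and without cow 3 it was 0.04, while the other settings run gave no call. Without cow 4, 102 of 750 names were called, 50 of them higher on HG, and without cow 3, 0 of 744.

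For each read of hsa-miR-378a-5p there were 41.1, 61.8, 46.03 and 73.0 reads of bta-miR-378 in plasma on FD and 26.1, 37.6, 36.8 and 44.0 on HG in cows 1 to 4. The number was lower on HG in 4 of 4 cows, with a mean log2 change of -0.61 ± 0.19 (SD, n = 4, exact sign-flip p = 0.13, the smallest that 4 cows allow). In leucocytes there were 27.2, 29.1 and 23.95 on FD and 23.4, 21.3 and 27.9 on HG in cows 1, 3 and 4, lower on HG in 2 of 3 cows, with a change of -0.15 ± 0.34 (SD, n = 3, exact p = 0.75). Plasma was above leucocytes in each cow on both diets, by a mean log2 ratio of 0.95 ± 0.57 on FD and 0.53 ± 0.33 on HG (SD, n = 3, exact p = 0.25 for each). The ratio was chosen after its values were seen. The FD plasma values rest on 27 to 33 reads of hsa-miR-378a-5p, and the 2 names are listed in different hairpins.

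**Figure D5:**
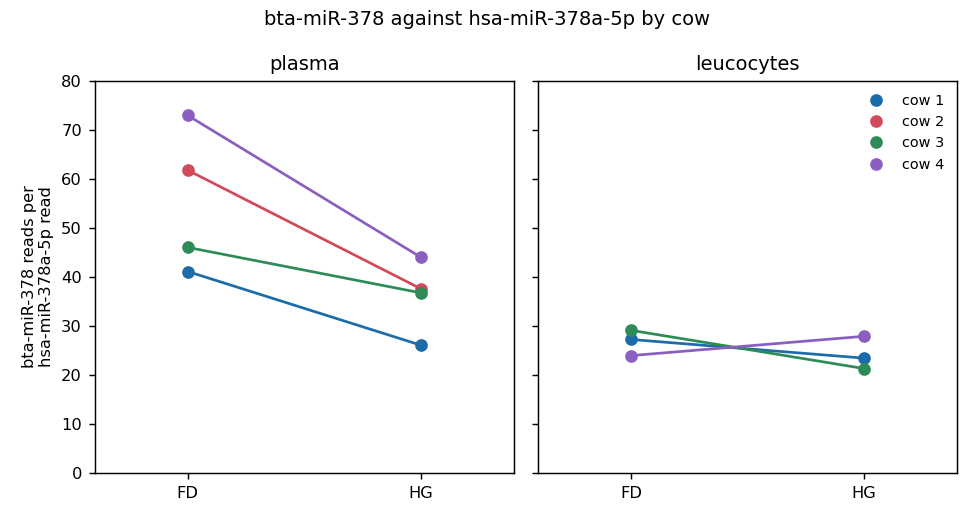
Shared reads of bta-miR-378 for each read of hsa-miR-378a-5p on FD and HG in plasma (left) and leucocytes (right), 1 line a cow. All 4 plasma lines fall, from 41.1 to 73.0 on FD to 26.1 to 44.0 on HG, while the 3 leucocyte lines stay between 21.3 and 29.1 and cross.

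Names with a pattern like that of the family were ranked by Pearson correlation of log2(CPM + 1) of adjusted counts over the 14 libraries, among 206 names outside miR-378 with at least 10 adjusted reads in each library. For bta-miR-378 they were bta-miR-34a (r = 0.982), bta-miR-302c (r = 0.981) and bta-miR-9-5p (r = 0.980), beside a median r of 0.50. With the mean of each sample type taken out they were bta-miR-15b (r = 0.958), bta-miR-9-5p (r = 0.948) and bta-miR-2332 (r = 0.948). For bta-miR-378c they were bta-miR-302c (r = 0.914), bta-miR-34a (r = 0.879) and bta-miR-424-5p (r = 0.879) over all libraries and bta-miR-302c (r = 0.985), bta-miR-9-5p (r = 0.960) and bta-miR-302a (r = 0.950) within sample types. These are descriptions over libraries that share cows and differ in depth. hsa-miR-378a-5p, left out of the ranking as a miR-378 name, stood at r = 0.924 with bta-miR-378 and at r = 0.968 with bta-miR-378c, the latter above every ranked name over all libraries.

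Among 14 other miRNAs known from energy and lipid metabolism, few moved with diet. In plasma 12 could be tested and none was called, with a median log2 difference of -0.01 beside 0.25 for all names. In leucocytes 14 were tested and 1 was called, beside 1.92% of all names: bta-miR-27a-3p, a regulator of fat cell formation, which was lower on HG, at -0.64 on the log2 scale (SE 0.13, edgeR adjusted p = 0.0313). That call was lost with DESeq2 size factors, without the cow block, and without cow 1 or cow 3 (edgeR adjusted p = 0.0549, 0.728, 0.228 and 0.992). Of all names these fits called 9 of 782, 0 of 782, 8 of 727 and 0 of 744. Of the 14, 3 were called with the DESeq2 test and 5 without cow 4, all lower on HG, beside 32 of 782 and 102 of 750 of all names. Between sample types 6 of 14 were called on FD, 4 higher in plasma and 2 lower, beside 19.5% of all names. Without cow 1 none was called, as for all names (0 of 702). On HG 7 of 13 were called, 3 higher and 4 lower, beside 44.6% of all names. The 3 higher on both diets were bta-miR-122, the main liver miRNA (8.94 on FD and 7.42 on HG), bta-miR-143, known from smooth muscle and fat (4.03 and 3.52), and bta-miR-30a-5p (3.56 and 2.80), and each was also called with library size scaling. bta-miR-103, a regulator of insulin sensitivity, was lower on both diets (-2.09 and -3.25), also with library size scaling (-1.39 and -1.28). bta-miR-26a was lower on both diets with TMM scaling (-1.19 and -2.01) but not called with library size scaling (-0.49 and -0.03).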

How the data were processed

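Plasma (8 libraries) and leucocytes (6 libraries) of cows on FD and HG were analysed. Per the paper's methods and the labels, the authors demultiplexed with bcl2fastq 2.20, trimmed adapters with Skewer and assigned reads with sRNAbench to bovine and human miRBase names on UMD3.1. The deposited files give read counts (here shared reads), where reads count whole at every name they match, counts of distinct sequences, and estimated counts divided among matches (here adjusted counts). The deposited RPM columns were treated as a score and used only to recover the assigned reads per library. The authors' normalized tables were not used.

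The family members and the gene lists were chosen with earlier results of these data known. Members were taken by name. All 4 members, human miR-378 names, the 3 names most like each member with at least 10 adjusted reads in at least 7 libraries, and a list of 14 metabolic miRNAs were named by rule. Adjusted counts were rounded to whole numbers and tested by the quasi-likelihood method of edgeR 4.0.16 in R 4.3.3 (TMM scaling, robust fitting, cow as a block, names summing to 10 or more) over all names, with Benjamini-Hochberg adjustment at 0.05. The alternatives were shared reads, DESeq2 1.42.0, other scalings, no filter, no block and leaving out each cow. Shares kept were compared by exact two-sided sign-flip permutation tests over cows. The scripts were tested on simulated data.

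Depth was 376589 to 4464702 assigned reads in plasma and 21764578 to 66070772 in leucocytes, which limits bta-miR-378b and bta-miR-378d most. Libraries were paired by cow. In leucocytes the labels tie the diets to a cow. In plasma the pairing rests on the authors' numbering, checked in 504 of 504 values, and the profiles did not show it (correlation of deviations -0.22 to 0.16 within cows and -0.27 to 0.33 between cows, against 0.43 to 0.65 within and -0.61 to 0.32 between cows in leucocytes). Each cow gave 1 library for each diet and sample type. No sequences are printed, since no reference table of mature miRNAs was used here.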

Additional observations from a re-analysis of the deposited data

Results flagged for a closer look

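Among 31 sets of 4 plasma values examined for a library far from the others, 6 were marked. The rule marks about 1 in 20 sets by chance when values are continuous. In all 6 the other 3 values were equal, so any differing value would be marked, and that rate does not apply to them. Of these, 4 concern bta-miR-378b, which had reads in a single library of each plasma group, each marked both by RPM and by distinct sequences. They were 0.647 RPM from 1 distinct sequence in cow 4 on FD, and 1.88 RPM from 1 distinct sequence in cow 3 on HG, each from 2 reads. For bta-miR-378d, cow 1 on FD had 0 distinct sequences where the other 3 cows had 1 each. For hsa-miR-378a-5p, cow 3 on FD had 5 distinct sequences where the other 3 cows had 3 each. All 6 rest on 0 to 30 reads.

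The number of bta-miR-378c reads per 100 reads of bta-miR-378 was higher on HG in 4 of 4 cows in plasma and lower on HG in 3 of 3 cows in leucocytes. Over the 3 cows with both sample types the plasma change exceeded the leucocyte change by 0.63 ± 0.46 on the log2 scale (SD, n = 3), in 3 of 3 cows, with an exact two-sided sign-flip p of 0.25, the smallest that 3 cows allow. The comparison was chosen after its values were seen.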

How the results depend on the processing

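No member was called by diet under any alternative run, including the fit without the cow block, and edgeR or DESeq2 adjusted p for members ranged from 0.504 to 0.999 in plasma and from 0.101 to 0.992 in leucocytes. Between sample types on HG the number of members called moved from 0 to 1 with library size scaling, which called 208 of 729 names. Signs turned as follows, in log2 units, and the cause was not tested.

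For plasma over leucocytes on HG, bta-miR-378c, bta-miR-378d and bta-miR-378b turned to 1.76, 1.93 and 1.66 with library size scaling, to 0.25, 0.42 and 0.21 with DESeq2 size factors, and to 0.17, 0.0025 and 0.070 without pairing by cow. bta-miR-378c and bta-miR-378d turned to 0.26 and 0.40 with the DESeq2 test and to 0.027 and 0.20 without the filter, bta-miR-378d to 0.10 with shared reads, and bta-miR-378c to 1.74 as the mean ratio of RPM. On FD bta-miR-378c turned to -0.092 with the DESeq2 test and -0.088 with its size factors. By diet, bta-miR-378d in leucocytes turned to -0.33 with shared reads, and bta-miR-378 in plasma to -0.26 in libraries with at least 1200000 reads. The diet difference between sample types of bta-miR-378 turned to 0.10 with library size scaling.

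Leaving out each cow in turn gave, for plasma over leucocytes on HG, -0.22 to 1.06 for bta-miR-378, -0.85 to 0.78 for bta-miR-378c, -0.84 to 0.79 for bta-miR-378d and 0.22 for bta-miR-378b (tested only without cow 4), and on FD 0.14 to 1.71 for bta-miR-378, -0.98 to 0.83 for bta-miR-378c and -5.43 to -1.81 for bta-miR-378d. It gave -0.31 to 0.51 for bta-miR-378 by diet in plasma, -0.39 to 1.97 for bta-miR-378b and -0.14 to 0.16 for bta-miR-378c in leucocytes, and for the difference between the diet effects -0.97 to 0.58 for bta-miR-378, -5.31 to 3.04 for bta-miR-378b, -0.38 to 1.42 for bta-miR-378c and 1.41 to 7.04 for bta-miR-378d. By diet in leucocytes hsa-miR-378a-5p ranged from 0.04 to 0.68. Differences in the share kept by diet ranged from -0.016 to 15.7 points for bta-miR-378d in plasma and in leucocytes from -16.5 to 6.38 for bta-miR-378b and -1.08 to 0.799 for bta-miR-378c, and by sample type on HG from -13.6 to 5.71 for bta-miR-378d. The log2 change of bta-miR-378 reads per hsa-miR-378a-5p read in leucocytes ranged from -0.33 to 0.0012.

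Depth limits bta-miR-378b and bta-miR-378d, which had at most 14 and 62 reads in a library, and 3 or 4 cows limit every exact test. The p-values measure the spread between these cows, each sampled once in each diet.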
